A study of Mus musculus with 8 samples.

Results

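Mitochondrial ribosomal proteins build the ribosome that works inside mitochondria. Their genes lie in the nucleus, the proteins are made in the cytosol and imported, and together with RNAs transcribed from mitochondrial DNA they form a large and a small subunit. This ribosome translates only the few mRNAs of the mitochondrial genome, which code for core subunits of the respiratory chain and of ATP synthase. The genes described here were chosen by name and biotype, as protein-coding genes whose symbol begins with Mrpl or Mrps followed by a digit. There were 78 such genes among the 54532 genes counted, 49 named for the large subunit (Mrpl) and 29 for the small subunit (Mrps).

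The RNA came from whole lungs of CC-LR mice and was sequenced after poly(A) selection. These mice carry a conditional K-ras G12D allele and Cre recombinase driven from the club cell secretory protein locus on a C57BL/6 background, so that mutant K-ras is switched on in lung epithelium and adenomas form. Control mice and mice given TTI-101, a small-molecule inhibitor of STAT3, both carried these alleles and both were 14 weeks old. There were 4 mice per group and 1 library per mouse, and treatment lasted 4 weeks from 10 weeks of age. The route of TTI-101, the vehicle of the controls and the sex of each mouse were not given for these libraries in the sources used here. The lungs held tumor, normal epithelium, immune, vascular and other cells together, so fewer cells of a type and less RNA per cell cannot be told apart.

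Libraries held 16446481 to 26873509 counts in the control group and 16075855 to 25920509 in the treated group, and the deepest library of each group was that of mouse 1. Lung identity was clear, since the summed level of 8 lung epithelial markers was 56727 to 98930 CPM, counts scaled to a common library size, in control and 40118 to 75285 CPM in treated mice. Other markers differed widely between mice. Summed markers of cardiomyocytes were at 106 to 974 CPM in control and 687 to 1771 CPM in treated mice, with all 10 detected, and those of red cells (5 of 7 tested) were at 58 to 264 CPM and 205 to 1586 CPM. Summed markers of adipocytes (5 of 7 tested) were at 13.3 to 100.7 CPM and 32.1 to 263 CPM, those of B cells at 119 to 318 CPM and 274 to 567 CPM, and those of T cells at 25.4 to 99.9 CPM and 56.0 to 115 CPM. Alveolar macrophage markers were at 371 to 1174 CPM and 627 to 913 CPM, cycling cell markers at 66.4 to 153 CPM and 47.4 to 74.5 CPM, and markers of motile cilia at 337 to 1006 CPM and 295 to 687 CPM. The part of these differences in the values of the mitochondrial ribosomal protein genes was not tested.

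Of the 78 genes, 77 were counted well enough to be tested. Their means over the 8 mice lay between 8.25 and 70.6 CPM, and the lowest count of a tested gene in any library was 110. Mrpl53, coding for a large-subunit protein found only in mitochondria, had 0 counts in all 8 libraries and was not tested. In the GENCODE M21 annotation, 88.0% of its exon bases also belong to Gm42688 on the same strand, and Gm42688 itself was counted at 1.03 ± 0.559 CPM in control and 2.03 ± 0.372 CPM in treated mice (SD, n = 4). How reads from the shared bases were assigned was not given in the sources used here, so the 0 of Mrpl53 does not show that its mRNA was absent. The symbols also do not fully match the particle. Mrps30 and Mrps18a are large-subunit proteins despite their names, and Mrps36 is now known as a component of the 2-oxoglutarate dehydrogenase complex. By particle, 51 genes belong to the large subunit, 26 to the small subunit and 1 to neither.

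The genes lay on 17 chromosomes, with 11 of them on chromosome 11, 8 on chromosome 17 and 7 on chromosome 6. They often shared a start region with a neighbor. For 18 of the 78 genes (23.1%), another protein-coding gene on the opposite strand started within 500 bases upstream, with both genes pointing apart. The same held for 1374 of the 22046 protein-coding genes in the table (6.2%). Pairs whose starts overlap, such as Mrpl46 and Mrps11, were not counted. Some partners also act in mitochondria. Mrps12 started 172 bases from Sars2, the mitochondrial seryl-tRNA synthetase, and Mrpl43 started 116 bases from Twnk, the helicase that unwinds mitochondrial DNA. Mrps27 started 81 bases from Ptcd2, an RNA-binding protein of mitochondria. Other partners act elsewhere, such as Fau at 137 bases from Mrpl49, which encodes a cytosolic ribosomal protein, and Psma2 at 75 bases from Mrpl32, a proteasome subunit.

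RefSeq promoters (GRCm38.p6) were found by symbol for 69 of the 78 genes, 75 promoters in all, each covering 250 bases before and 50 bases after a transcription start. They were rich in CpG, with a median of 21 CpG dinucleotides against 7 over the 32851 promoters of the table and 14 over the promoters of protein-coding genes counted here. Exact letters of 4 motifs were searched on both strands. The motif of ETS factors such as GABPA, CCGGAAGT, was found in 16.0% of the promoters of mitochondrial ribosomal protein genes, 3.89% of all promoters and 5.34% of protein-coding promoters. The YY1 motif AAGATGGCG was found in 10.7%, 1.4% and 1.92%, and the palindrome of NRF1 in 4.0%, 0.971% and 1.38%. TTCCNGGAA, the palindrome recognized by STAT3, was found in the promoters of 2 genes, Mrpl30 and Mrpl50, or 2.67%, against 1.15% of all promoters and 1.2% of protein-coding promoters. The 4 promoters with a motif printed here show 1 example of each, and that of Mrps25, whose expression is described further on, held none of the 4 in its window. Each stretch is the 250 bases up to the RefSeq start, read 5′ to 3′ along the gene, and capitals mark the motif, which in Mrps11 is on the opposite strand.
Mrpl3 (chr9:105053018-105053267, plus strand): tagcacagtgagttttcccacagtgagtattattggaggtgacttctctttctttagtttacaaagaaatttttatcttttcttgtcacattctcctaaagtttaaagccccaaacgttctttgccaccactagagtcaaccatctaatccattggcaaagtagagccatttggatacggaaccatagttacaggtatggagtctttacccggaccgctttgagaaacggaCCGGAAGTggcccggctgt
Mrpl9 (chr3:94443086-94443335, plus strand): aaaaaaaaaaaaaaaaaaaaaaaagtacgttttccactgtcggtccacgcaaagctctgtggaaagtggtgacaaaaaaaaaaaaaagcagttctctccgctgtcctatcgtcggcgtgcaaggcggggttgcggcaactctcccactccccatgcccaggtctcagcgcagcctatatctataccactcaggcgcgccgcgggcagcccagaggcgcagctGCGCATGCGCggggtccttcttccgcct
Mrps11 (chr7:78782881-78783130, plus strand): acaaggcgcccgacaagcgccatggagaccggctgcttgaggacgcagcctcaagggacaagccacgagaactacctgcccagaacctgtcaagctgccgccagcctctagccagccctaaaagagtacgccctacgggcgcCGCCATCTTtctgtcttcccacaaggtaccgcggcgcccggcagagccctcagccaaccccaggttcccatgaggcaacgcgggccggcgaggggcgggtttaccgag
Mrpl30 (chr1:37890227-37890476, plus strand): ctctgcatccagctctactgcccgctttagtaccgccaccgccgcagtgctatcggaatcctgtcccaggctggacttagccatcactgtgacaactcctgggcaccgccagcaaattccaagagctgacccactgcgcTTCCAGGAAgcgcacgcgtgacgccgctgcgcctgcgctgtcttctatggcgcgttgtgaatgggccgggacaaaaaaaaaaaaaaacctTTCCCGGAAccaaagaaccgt
Mrps25 (chr6:92184024-92184273, minus strand): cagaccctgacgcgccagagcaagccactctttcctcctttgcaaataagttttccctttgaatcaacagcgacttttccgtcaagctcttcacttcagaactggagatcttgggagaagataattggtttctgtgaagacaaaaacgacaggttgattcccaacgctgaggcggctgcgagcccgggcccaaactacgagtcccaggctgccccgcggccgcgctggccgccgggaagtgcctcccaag

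These matches describe the letters of the window and were not tested as sites of binding. The ETS match of Mrpl3 ended 12 bases before its RefSeq start and the NRF1 match of Mrpl9 ended 19 bases before. The gene models counted here start earlier. The last 29 bases of the Mrpl3 stretch are thus exon and hold the match. In Mrpl9 the last 18 bases are exon, and the match lies before them. The STAT3 matches of Mrpl30 ended 103 and 13 bases before its start. Mrpl30 shares this window with Mitd1, whose start lay 66 bases away on the opposite strand. The Mrps11 stretch lies within the Mrpl46 gene on the opposite strand, and its YY1 match ended 100 bases before the start of Mrps11. The YY1 matches of Mrpl35, Mrpl37, Mrpl42, Mrps18a, Mrps24 and Mrps27 instead lay after the start. The 2 genes with a STAT3 match had a median log2 fold change between treated and control mice of -0.13, against -0.09 in the 66 tested genes whose promoters had none. The 3 genes with an NRF1 match had a median of -0.40 against -0.09 in the other 65, the 12 genes with an ETS match -0.08 against -0.09, and the 8 genes with a YY1 match -0.03 against -0.10. These medians are descriptions over few genes.

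Levels of different genes were compared per kilobase of gene length. The 4 highest genes were Mrpl34, Mrps21, Mrpl52 and Mrpl14. Mrpl34 was at 47.4 ± 12.0 CPM per kilobase in control and 43.4 ± 16.1 in treated mice (SD, n = 4), and Mrps21 at 48.1 ± 11.7 and 40.3 ± 6.99. Mrpl52 was at 47.1 ± 12.0 and 37.1 ± 8.37, and Mrpl14 at 34.4 ± 6.27 and 36.4 ± 7.03. The first 3 of these did not differ from each other beyond their spread. The 4 lowest genes were Mrps30, Mrps35, Mrpl19 and Mrps22, with Mrps22 at 2.13 ± 0.32 CPM per kilobase in control and 2.02 ± 0.19 in treated mice. Mrps30 was at 2.69 ± 0.27 and 2.52 ± 0.48, overlapping Mrps35 and Mrpl19 in its spread.

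**Figure D1:**
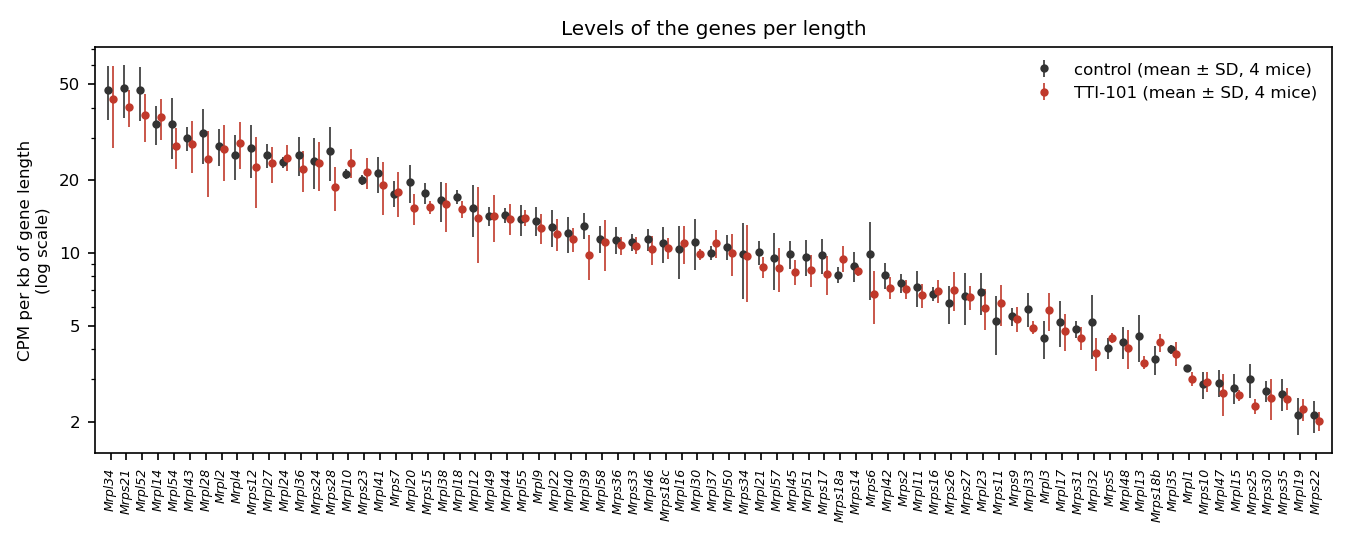
Level of each of the 77 tested genes in CPM per kilobase of gene length, on a log axis, ordered from the highest to the lowest, with the mean of each group of 4 mice as a point and its SD as a bar. The highest gene lies 21.9 times above the lowest, and the control and treated means of a gene lie close together along the whole order.

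The highest gene was 21.9 times the lowest, and the middle of the order, from the first to the third quartile, spanned 5.40 to 17.5 CPM per kilobase with a median of 10.5. The median was 11.1 CPM per kilobase for large-subunit and 7.81 for small-subunit genes. This order depends on the length used. For 72 of the 77 tested genes, the deposited gene length equals all exons of all transcripts in GENCODE M21 joined, and for the others it is shorter. With the length of the principal transcript of GENCODE M21, Mrpl52, Mrpl33, Mrps21 and Mrpl4 were the highest, Mrpl19, Mrps25, Mrpl47 and Mrpl1 the lowest, the ratio of highest to lowest was 46.7, and the medians were 17.0 for the large and 13.4 for the small subunit.

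To determine whether TTI-101 changed these genes, a quasi-likelihood model in edgeR was fitted to all 17138 genes with enough counts, and treated mice were set against controls. At an adjusted p under 0.05 the test called 0 of the 77 genes and 0% of all genes, and limma-voom and DESeq2 also called 0 of the 77, where limma-voom called 0% of all genes and DESeq2 called 4 of 31769 genes (0.0126%). The lowest adjusted p among the 77 was 0.657. At an unadjusted p under 0.05, edgeR called 2 of them lower in treated mice, Mrpl39 and Mrps25, and 0 higher, where 3.58% of all genes were lower and 3.02% higher (6.61% in either direction). limma-voom called only Mrpl39 (6.41% of all genes) and DESeq2 only Mrps28 at that threshold. The DESeq2 share was 5.32% of the 31769 genes with a p-value, which include genes of low count, and 8.51% of those kept by the filter of edgeR. The share of 77 genes called by edgeR is below the share among all genes.

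The fold changes were small. The log2 fold change was below 0 for 59 of the 77 genes (76.6%) and above 0 for 18, where 49.4% of all genes were below 0. The median was -0.09, with quartiles of -0.18 and -0.01, against 0.00 over all genes, with quartiles of -0.20 and 0.22. For 56 genes the change was under 0.2 in either direction and for 1 gene, Mrps6, it exceeded 0.5. The standard error of a gene's log2 fold change had a median of 0.18 and ranged from 0.13 to 0.30, and for 50 genes the difference was smaller than its own standard error. The genes share mice and vary together between them, so the count below 0 is not 77 independent observations.

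**Figure D2:**
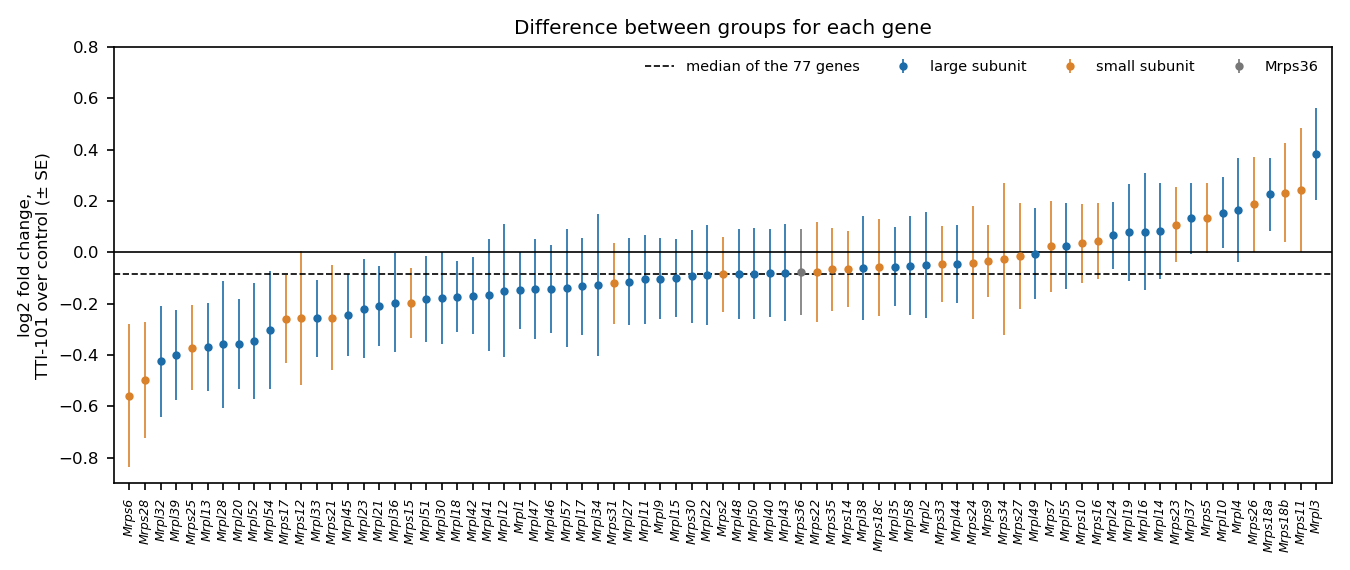
Log2 fold change of TTI-101-treated against control mice for each of the 77 tested genes, ordered by value and colored by ribosomal subunit, with the standard error from edgeR as a bar and the median as a dashed line. Of the 77 points, 59 lie below 0 and 18 above, from -0.56 for Mrps6 to 0.38 for Mrpl3, and 50 of the 77 bars cross 0.

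**Figure D3:**
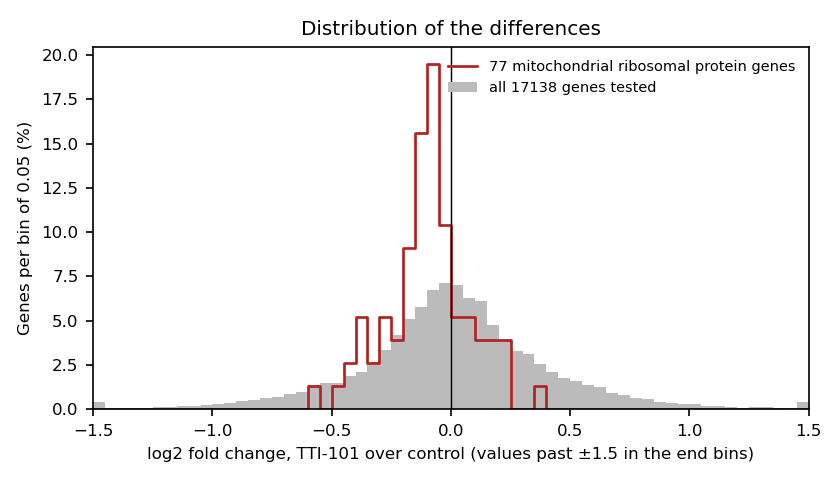
Distribution of log2 fold changes, treated against control, of the 77 tested genes and of all 17138 genes tested, as percent of each set per bin of 0.05, with values past the axis gathered in the end bins. The 77 genes form a narrow peak with a median of -0.09, while the peak of all genes is centered at 0.00 and is wider.

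Leaving out 1 mouse at a time moved these counts. The number of genes lower at an unadjusted p under 0.05 was 9 when control mouse 1 was left out and 6 without treated mouse 2, and 0 without control mouse 2, treated mouse 3 or treated mouse 4, and 1 without any of the other 3 mice. These were not always Mrpl39 and Mrps25, since the 1 gene was Mrpl32 without control mouse 3 or treated mouse 1 and Mrps25 without control mouse 4. Over all genes, in either direction, 2393 (13.7%) passed without control mouse 1 and 2498 (14.2%) without treated mouse 2, against 1132 (6.61%) with all mice. Of the 77 genes, 10 and 7 passed in either direction in these runs. Without control mouse 2, 1143 of all genes passed (6.51%), and without any of the other mice 422 to 824 (2.42% to 4.74%). The median log2 fold change of the 77 genes lay between -0.15 without control mouse 1 and -0.04 without treated mouse 4, and the number below 0 between 47 without treated mouse 4 and 63 without treated mouse 3.

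The large and small subunits were near each other. Of the 50 tested large-subunit genes, 40 had a log2 fold change below 0, with a median of -0.11, and of the 26 small-subunit genes, 18 were below 0, with a median of -0.05. In the large subunit, the 30 proteins with a bacterial counterpart had a median of -0.12 and the 20 found only in mitochondrial ribosomes a median of -0.09. In the small subunit, the medians were -0.06 for 16 genes with a bacterial counterpart and -0.04 for 10 specific to mitochondria. The last of these was 0.03 without control mouse 4, so its sign differed between settings. With 1 library left out, the median of the large subunit lay between -0.18 (without treated mouse 2) and -0.05 (without treated mouse 4), and that of the small subunit between -0.13 (without control mouse 1) and -0.02 (without treated mouse 4).

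Mrpl39 (ENSMUSG00000022889, GRCm38 chromosome 16, 84717576 to 84735742, minus strand) encodes a protein of the large subunit specific to mitochondria, and had the lowest p of the 77 genes. Its levels were 29.6, 31.5, 31.6 and 38.8 CPM in control mice 1 to 4 and 22.3, 32.7, 23.4 and 21.2 CPM in treated mice 1 to 4. Treated mice 1, 3 and 4 lay below every control, and treated mouse 2 lay within the controls. The log2 fold change was -0.40 (standard error, SE, 0.18; unadjusted p = 0.0441, adjusted p = 0.657 in edgeR), and the two-sided exact permutation test, with 70 ways to assign the mice, gave p = 0.114.

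Mrps25 (ENSMUSG00000014551, chromosome 6, 92169525 to 92184033, minus strand) encodes a protein of the small subunit specific to mitochondria. It was at 16.0, 22.0, 22.7 and 18.2 CPM in control and 15.8, 15.9, 15.7 and 13.6 CPM in treated mice. All treated mice lay below all controls, but by little, since treated mouse 2 and control mouse 1 nearly met. The log2 fold change was -0.37 (SE 0.17, unadjusted p = 0.04997, adjusted p = 0.657 in edgeR). The exact permutation p was 0.0286, the smallest that 4 against 4 mice can give. In the annotation, 69.8% of the exon bases of Mrps25 overlap Nr2c2, a nuclear receptor gene on the opposite strand. The library kit marks strand, but whether the counting used it was not given in the sources used here. Nr2c2 itself was at 14.8 ± 11.2 CPM in control and 10.4 ± 10.9 CPM in treated mice (SD, n = 4), with the fourth mouse of each group the highest.

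Mrps28, a small-subunit protein with a bacterial counterpart, was at 14.4, 19.0, 23.2 and 26.4 CPM in control and 12.6, 18.5, 15.7 and 12.0 CPM in treated mice, with overlapping groups. Its log2 fold change was -0.50 (SE 0.23, unadjusted p = 0.0511 in edgeR). Mrpl13, a conserved large-subunit protein, was at 27.3, 32.2, 39.3 and 45.2 CPM in control and 27.7, 28.6, 29.7 and 25.6 CPM in treated mice. Control mouse 1 lay among the treated mice, and the log2 fold change was -0.37 (SE 0.17, unadjusted p = 0.0571 in edgeR). In both genes control mice 3 and 4 were the highest of the 8. Mrps6, singled out after its values were seen as the gene with the lowest log2 fold change, was at 15.2 ± 5.42 CPM in control and 10.3 ± 2.55 CPM in treated mice (SD, n = 4), a log2 fold change of -0.56 (SE 0.28, unadjusted p = 0.0727 in edgeR). On the same strand, Mrps6 shares 19.9% of its exon bases with Gm49711 and 10.4% with Slc5a3, an inositol transporter gene. Gm49711 had 2 counts in control mouse 1 and 0 in every other library. Slc5a3 itself was at 14.3 ± 3.06 CPM in control and 10.9 ± 2.14 CPM in treated mice (SD, n = 4). The part of shared bases in the values of Mrps6 was not tested.

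Mrpl1, a conserved large-subunit protein, was the other gene whose groups did not overlap. It was at 14.3, 14.5, 14.8 and 13.9 CPM in control and 13.7, 13.2, 11.6 and 13.3 CPM in treated mice, a narrow gap between control mouse 4 and treated mouse 1. The log2 fold change was -0.15 (SE 0.15, unadjusted p = 0.349 in edgeR) and the exact permutation p was 0.0286. Thus 2 of the 77 genes lay wholly below the controls and 0 wholly above, where 1.43% of all genes lay wholly below and 1.53% wholly above. With 3 mice in a group such gaps are more frequent among all genes too. Without control mouse 1 there were 14 genes whose groups did not overlap in either direction (18.2%, against 10.8% of all genes), and without treated mouse 2 there were 7 (9.09%, against 13.8% of all genes). Without treated mouse 1 there were 5 (6.49%, against 5.68%), and without control mouse 3, control mouse 4 or treated mouse 4 there were 3 (3.9%, against 3.69% to 5.75%).

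Of the 18 genes above 0, Mrpl3 had the lowest p. Mrpl3 (ENSMUSG00000032563, chromosome 9, 105053239 to 105079888, plus strand) encodes a conserved protein of the large subunit, and its promoter with an ETS motif is printed among the sequences. Its levels were 36.9, 30.4, 25.6 and 25.4 CPM in control and 42.3, 32.9, 46.4 and 32.8 CPM in treated mice. Treated mice 1 and 3 lay above every control, while treated mice 2 and 4 lay below control mouse 1. The log2 fold change was 0.38 (SE 0.18, unadjusted p = 0.0579 in edgeR, exact permutation p = 0.114). Here control mice 3 and 4 were the lowest of the 8, the opposite of Mrps28 and Mrpl13.

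Mrps18a, Mrps18b and Mrps18c are related in sequence, and only Mrps18c is classed here as the counterpart of the bacterial protein. Mrps18a was at 26.9, 30.7, 32.3 and 29.8 CPM in control and 32.4, 35.9, 40.7 and 31 CPM in treated mice, a log2 fold change of 0.23 (SE 0.14, unadjusted p = 0.139 in edgeR, exact permutation p = 0.0571). Mrps18b was at 7.74, 7.95, 6.10 and 8.57 CPM and 9.80, 8.17, 8.39 and 9.30 CPM, a log2 fold change of 0.23 (SE 0.19, unadjusted p = 0.251 in edgeR). Mrps18c was at 11.8 ± 2.04 CPM in control and 11.3 ± 1.14 CPM in treated mice (SD, n = 4), a log2 fold change of -0.06. None of the 3 passed the test. Mrpl10, a stalk protein of the large subunit, was at 36.3 ± 1.70 CPM in control and 40.4 ± 5.48 CPM in treated mice (SD, n = 4), a log2 fold change of 0.15 (SE 0.14, unadjusted p = 0.287 in edgeR).

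No gene chosen for a well-known role differed between the groups at an unadjusted p under 0.05 in edgeR. Mrpl12, which forms the stalk of the large subunit and is also reported to bind the mitochondrial RNA polymerase, was at 23.6 ± 5.71 CPM in control and 21.3 ± 7.38 CPM in treated mice (SD, n = 4), a log2 fold change of -0.15. Mrps12, the decoding-center protein whose bacterial counterpart is tied to streptomycin resistance, was at 28.3 ± 7.01 and 23.7 ± 7.72 CPM, a log2 fold change of -0.26. Mrpl58, a peptidyl-tRNA hydrolase that frees stalled ribosomes, was at 38.2 ± 4.90 and 36.9 ± 8.90 CPM, a log2 fold change of -0.05. Mrpl45, which lies near the exit of the peptide tunnel and helps to anchor the ribosome at the inner membrane, was at 25.7 ± 3.49 and 21.7 ± 2.56 CPM, a log2 fold change of -0.24. None of these 4 genes passed an unadjusted p of 0.05 in edgeR, the lowest being 0.159 for Mrpl45.

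Mrpl41 was at 19.0 ± 3.25 CPM in control and 16.9 ± 4.23 CPM in treated mice (SD, n = 4), and Mrpl44 at 23.6 ± 1.70 and 22.8 ± 3.31 CPM. Mrps22, Mrps16 and Mrps5 are small-subunit proteins, and mutations in the human genes of the first 2 cause mitochondrial disease. Mrps22 was at 8.49 ± 1.29 and 8.05 ± 0.76 CPM, Mrps16 at 19.4 ± 1.33 and 20.0 ± 2.12 CPM and Mrps5 at 26.7 ± 2.69 and 29.3 ± 1.31 CPM. Mrps30 was at 17.9 ± 1.77 and 16.8 ± 3.19 CPM. Mrps36, the member outside the ribosome, was at 14.5 ± 1.87 and 13.7 ± 1.21 CPM. For each of these 7 genes the difference of the means was within 1 SD of the larger group spread.

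The clearer pattern was between mice of 1 group. For each gene the mean log2 CPM over the 8 mice was subtracted, and the median over the 77 genes was taken per mouse. It was -0.18, 0.05, 0.17 and 0.15 in control mice 1 to 4 and -0.13, 0.12, 0.04 and -0.19 in treated mice 1 to 4. Control mouse 1 and treated mice 1 and 4 were thus low over most of the genes, and control mice 3 and 4 and treated mouse 2 were high, so the groups overlapped widely. Treated mouse 4 was the lowest of the 8 for 29 genes and the highest for 0. Control mouse 1 was the lowest for 16 genes and treated mouse 1 for 13, while control mice 3 and 4 were each the highest for 22 genes. In treated mouse 4, 4 of the 77 genes were above their mean over the 8 mice, against 60 genes in control mouse 3 and in treated mouse 2.

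**Figure D4:**
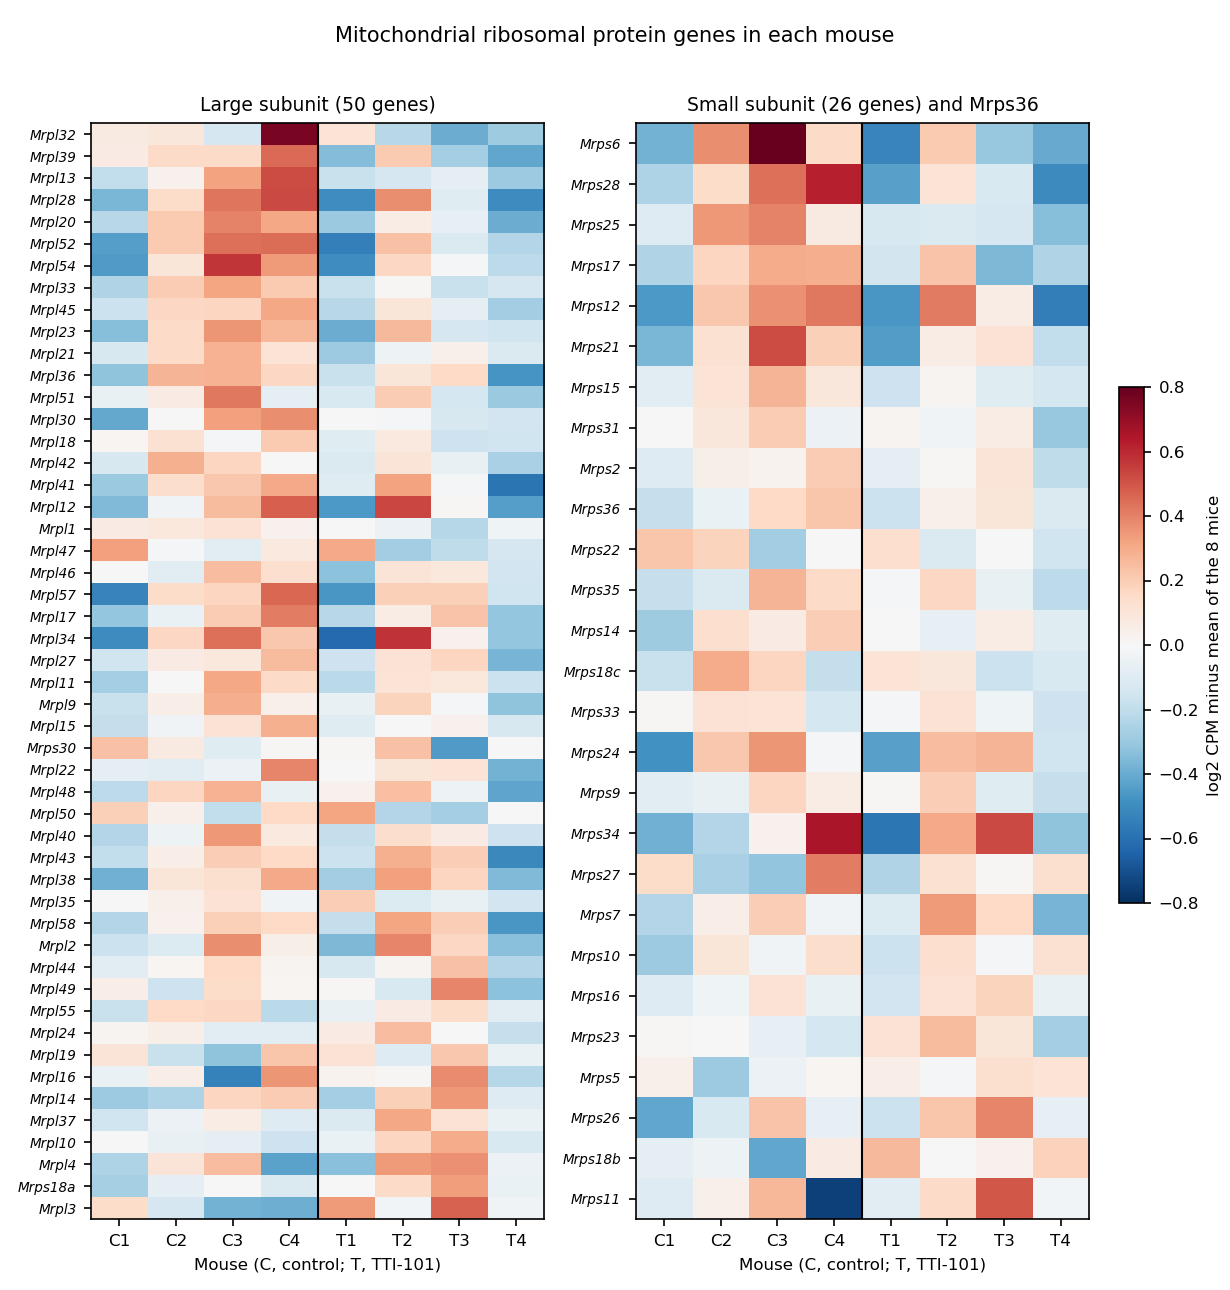
Heat map of log2 CPM minus the gene's mean over the 8 mice, with 1 row per tested gene, 1 column per mouse (C, control; T, TTI-101) and separate panels for the large and the small subunit, rows ordered from the lowest to the highest fold change. The columns of control mouse 1 and treated mice 1 and 4 are blue for most genes (medians between -0.13 and -0.19), and those of control mice 3 and 4 and treated mouse 2 are red for most (medians between 0.12 and 0.17).

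Summed over the 77 genes, the level was 1786, 2107, 2311 and 2243 CPM in control and 1818, 2258, 2115 and 1737 CPM in treated mice, or 2112 ± 233 and 1982 ± 245 CPM (SD, n = 4). The difference between the group means was smaller than the SD of either group. As a share of all counts, the genes took 0.178% to 0.229%. Control mouse 1 and treated mouse 1, which were low, had the 2 deepest libraries, whereas treated mouse 4, also low, had the shallowest. The part of depth was not tested. Within a group, the median SD of log2 CPM was 0.23 for these genes, against 0.33 over all genes and 0.31 over protein-coding genes. Both larger sets include genes of lower count, and the part of count level was not tested. The other nuclear lists of mitochondrial genes, described further on, had medians of 0.17 to 0.25, and cytosolic ribosomal protein genes 0.27.

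Several genes left this pattern. Mrpl3 was low in control mice 3 and 4, where most others were high, and Mrpl1 varied little in the controls, with 14.4 ± 0.342 CPM (SD, n = 4). Mrps11, also singled out after its values were seen, was lowest in control mouse 4, with 11.2, 12.4, 14.5 and 7.16 CPM in control and 11.3, 13.5, 17.1 and 11.9 CPM in treated mice. Mrpl34, the highest gene per kilobase, followed the common pattern closely, with 18.6, 29.7, 35.9 and 30.8 CPM in control and 17.2, 39.6, 27.1 and 21.4 CPM in treated mice. Its groups overlapped throughout, with a log2 fold change of -0.13 (SE 0.28) in edgeR, and its sign turned without treated mouse 1. Mrpl52 moved in the same way between mice, at 33.3, 52.5, 61.5 and 61.8 CPM in control and 31, 53.3, 41.9 and 38.5 CPM in treated mice.

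The other genes of mitochondrial translation were taken from lists of known function. Mitochondrial ribosomal proteins with other names followed the same mice. Dap3, a small-subunit protein that binds GTP, was at 53.0 ± 5.81 CPM in control and 48.9 ± 7.34 CPM in treated mice (SD, n = 4), Ptcd3 at 29.6 ± 3.23 and 30.0 ± 3.23 CPM and Chchd1 at 26.4 ± 3.68 and 24.1 ± 2.38 CPM. Aurkaip1 was at 59.4 ± 11.7 and 53.5 ± 9.91 CPM and Gadd45gip1 at 15.5 ± 3.28 and 15.4 ± 4.51 CPM. Of these 5 genes, 0 passed an unadjusted p of 0.05, and their median deviation per mouse was -0.18, 0.10, 0.21 and 0.16 in control and -0.08, 0.10, 0.07 and -0.12 in treated mice.

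Genes that assemble or run the ribosome had medians at or slightly above 0. Of 28 genes for assembly and rRNA modification, 12 were below 0 and 16 above, with a median log2 fold change of 0.04 (-0.01 to 0.10 with 1 library left out). At an unadjusted p under 0.05, 1 was higher, Mtg2, a GTPase of large-subunit assembly, at 16.3 ± 3.8 CPM in control and 22.7 ± 2.67 CPM in treated mice (SD, n = 4), a log2 fold change of 0.47 (SE 0.19, adjusted p = 0.657 in edgeR). Of 15 translation factors and activators, 5 were below 0 and 10 above with a median of 0.06 (0.01 without treated mouse 1), and of 20 mitochondrial aminoacyl-tRNA synthetases, 9 were below 0 and 11 above with a median of 0.06 (0.00 without treated mouse 3). Of 10 genes for transcription and replication of mitochondrial DNA, 4 were below 0 and 6 above with a median of 0.01, whose sign turned with a library left out (-0.05 without treated mouse 1 to 0.06 without control mouse 1). None of these 45 genes passed an unadjusted p of 0.05 in edgeR, where 3.58% of all genes were lower and 3.02% higher. The median deviation of the translation factors lay between -0.04 and 0.11 in all 8 mice, without the low values of control mouse 1 and treated mice 1 and 4.

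The mRNAs that the mitochondrial ribosome translates are made in the mitochondrion. Of 13 such genes, 12 were tested, all 12 were below 0, and the median log2 fold change was -0.53. This value rested on 1 library, since control mouse 4 had a median deviation of 1.10 while the other 7 mice lay between -0.48 and 0.04. Genes of the mitochondrial genome took 5.56% of the counts in control mouse 4, against 2.01% to 2.85% in the others. Without control mouse 4 the median was -0.12. The lowest p was that of mt-Co2, a subunit of cytochrome c oxidase, at 104 ± 41.5 CPM in control and 54.5 ± 16.8 CPM in treated mice (SD, n = 4), a log2 fold change of -0.93 (SE 0.31, adjusted p = 0.657 in edgeR). Summed over the 12 genes, the mean level was 33570 CPM in control and 23400 CPM in treated mice. The counts of mt-Co2 were thus a small part of the list, and the reason was not tested. Whether its difference rested on control mouse 4 was not tested either. At an unadjusted p under 0.05, edgeR and limma-voom each called 1 of the 12 and DESeq2 called 3. Among all genes kept by the filter of edgeR, these shares were 6.61%, 6.41% and 8.51% in either direction. The nuclear genes of the mitochondrial ribosome did not stand out in control mouse 4, where their median deviation was 0.15 beside 0.17 in control mouse 3. The 2 mitochondrial rRNAs had a median of -0.66, and at an unadjusted p under 0.05 edgeR called 0 of them and DESeq2 called 1. Libraries were poly(A)-selected, so these counts are no measure of rRNA amount. How far this median rested on control mouse 4 was not tested.

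**Figure D5:**
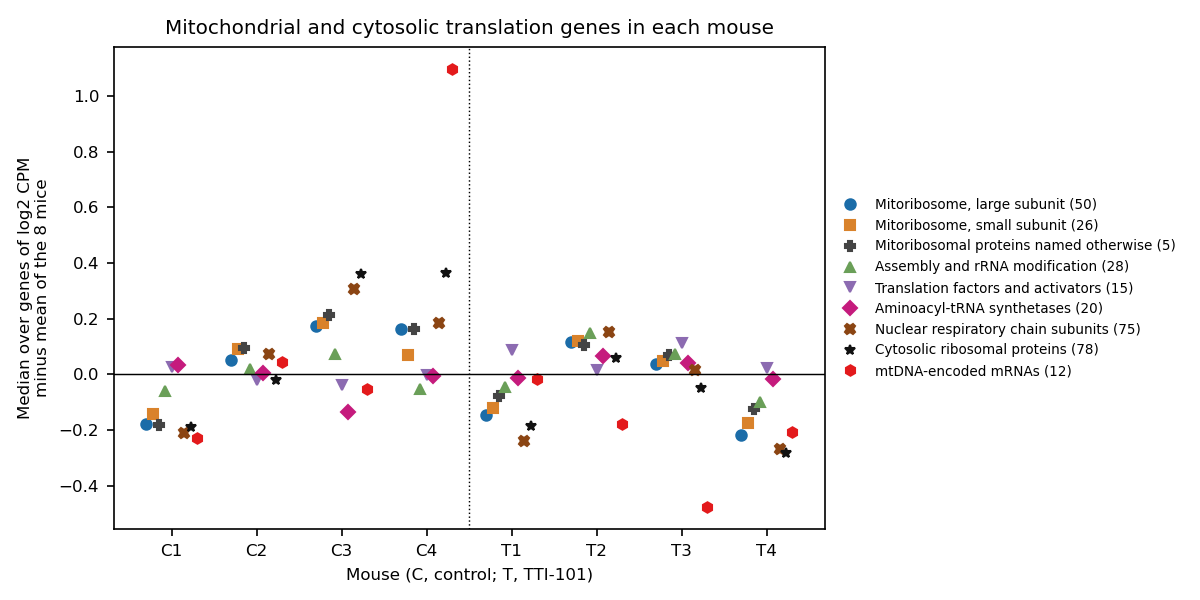
Median deviation from the mean over the 8 mice, in log2 CPM, per mouse for the mitochondrial ribosomal protein genes and the other lists, 1 marker per list and mouse, with the large and small subunits apart and the number of genes in brackets. The mitochondrial ribosomal, cytosolic ribosomal and nuclear respiratory chain genes are low in control mouse 1 and treated mice 1 and 4, while the mRNAs of mitochondrial DNA stand at 1.10 in control mouse 4.

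Compared with the mitochondrial ribosomal protein genes, genes of the cytosolic ribosome had lower fold changes. All 78 tested of 80 were below 0, with a median of -0.26, and 7 were lower and 0 higher at an unadjusted p under 0.05 in edgeR. At that threshold, 3.58% of all genes were lower and 3.02% higher. With a library left out the median of the cytosolic ribosomal protein genes lay between -0.37 (without control mouse 1) and -0.15 (without control mouse 4). The median deviation per mouse was -0.19, -0.02, 0.36 and 0.36 in control and -0.18, 0.06, -0.05 and -0.28 in treated mice. Of 75 nuclear genes for subunits of the respiratory chain and ATP synthase, 58 were below 0, with a median of -0.19, and 5 were lower and 0 higher at an unadjusted p under 0.05 in edgeR. Their median lay between -0.28 without control mouse 1 and -0.08 without control mouse 3. Per mouse their median deviation was -0.21, 0.07, 0.31 and 0.19 in control and -0.24, 0.15, 0.02 and -0.27 in treated mice. None of the genes in either list passed an adjusted p of 0.05 in edgeR, limma-voom or DESeq2. The difference between the lists was not tested. Both lists and the mitochondrial ribosomal protein genes were lowest in the same 3 mice, control mouse 1 and treated mice 1 and 4.

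Some of these genes share exon bases with other genes, and how reads there were counted is not known. In GENCODE M21, 33 of the 78 genes do so, 8 of them on the same strand and 28 on the opposite strand. Among these, Mrpl46 and Mrps11 overlap each other at their starts on opposite strands. Mrps34 overlaps Mapk8ip3 on the opposite strand over 63.4% of its exon bases. It also overlaps Nme3 on the same strand over 37.0%, and Nme3 had 0 counts in all 8 libraries. Of the 45 tested genes without any overlap, 36 were below 0 and 9 above, with a median log2 fold change of -0.10 and 1 gene at an unadjusted p under 0.05. Pseudogenes of these genes had few counts, with at most 84 counts over the 8 libraries in any of 8 annotated copies.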

How the data were processed

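Whole-lung RNA of CC-LR mice was sequenced, 4 in the control and 4 in the TTI-101 group, with 1 library each. The authors deposited raw counts, whole-number reads per Ensembl gene with no normalization, in 1 table with gene lengths. Libraries were poly(A)-selected with a kit that marks strand and sequenced as paired ends. The submitters' processing notes name STAR, DESeq2 and mm10, while the counting tool, its strand setting and versions were not given in the sources used here. The coordinates of 73 of the 78 genes equal GENCODE M21 (GRCm38). No library stood for another, since pairs of libraries in a group differed beyond counting noise (chi-square per degree of freedom of 4.01 to 17.0 over the 77 tested genes).

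Fits were made with edgeR 4.0.16 under R 4.3.3. Genes were filtered by filterByExpr with a minimum count of 10, scaled by TMM, and compared by robust quasi-likelihood tests with Benjamini-Hochberg adjustment over 17138 genes. CPM are counts divided by the TMM-scaled library size, and log2 CPM used a prior count of 2. Besides its group and number, each library has a name in the labels, whose letter is shared by pairs of libraries within a group. What these letters mark was not given in the sources used here and was not tested. The p-values measure the spread between these libraries, taken as independent. Single genes were also given an exact permutation test, two-sided, with 70 ways to assign the mice, whose smallest p is 0.0286. No set test was run. Total counts per library, from 16075855 to 26873509, limit the precision, and counts cover sampling of reads only. The fit was tested on simulated data.

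Alternatives were DESeq2 1.42.0, limma-voom (limma 3.58.1), DESeq2 size factors, library totals, no filter, 10 counts in every library, protein-coding genes only, the replicate number as a block, a covariate for Xist and each library left out. Genes without overlap, the principal transcript length and the refits of the other lists were chosen after seeing the data. The member genes and all lists were chosen with earlier results of these data known. Named genes were the 4 with the lowest p in each direction, those whose groups did not overlap, the 4 highest and 4 lowest per kilobase, 14 with a known role, the 1 not tested, 5 ribosomal proteins named otherwise and up to 3 genes per other list. Motifs were searched as exact letters on both strands in RefSeq promoters.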

Additional observations from a re-analysis of the deposited data

Results flagged for a closer look

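A measurement was set apart where the highest or lowest of the 4 mice of a group lay far from the other 3 by Dixon's test at 95%. Of 112 groups examined, 3 met this, where chance gives about 5.6. Mrps25 in treated mouse 4 was 1 of them, at 13.6 CPM against 15.7 to 15.9 CPM in the other 3 treated mice (ratio 0.897). Total counts of control mouse 1 were another, at 26873509 against 16446481 to 18220467 in the other controls (ratio 0.83). The last was the share of counts from mitochondrial DNA in control mouse 4, at 5.56% against 2.44% to 2.85% (ratio 0.867), and without this mouse 51 of the 77 mitochondrial ribosomal protein genes were below 0 and their median was -0.05 on the log2 scale.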

How the results depend on the processing

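At an adjusted p under 0.05, 0 of the 77 genes were called in every alternative run. The count of 2 genes lower at an unadjusted p under 0.05 (Mrpl39 and Mrps25) became 1 with limma-voom, DESeq2 size factors, at least 10 counts in every library, or genes without an overlapping gene, each time Mrpl39, and 1 with DESeq2, which called Mrps28 in place of both. With no filter it stayed 2, but of Mrps28 and Mrps6. It became 0 with library totals or with Xist as a covariate, and leaving out 1 library gave 0 to 9. The 0 higher genes became 1, Mrpl3, when only protein-coding genes were tested, and 0 to 1 with a library left out. The 2 genes whose groups did not overlap became 1 with DESeq2 size factors and 2 to 14 with a library left out. The number below 0 was 55 to 59 in the fits with all 8 mice and 47 to 63 with a library left out. The median was -0.09 to -0.05 with all mice and -0.15 to -0.04 with a library left out, where all genes moved from 0.00 to 0.04 with library totals.

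With the replicate number as a block, 1 gene was lower (Mrpl39) and 1 higher (Mrpl3) at an unadjusted p under 0.05, with a median of -0.09 and 1298 of all genes. Deviations of same-numbered mice correlated at 0.393, 0.082, 0.158 and 0.071. Control mice 1 and 2 correlated best with their own number, and control mice 3 and 4 did not. With so few mice, these values cannot show whether the shared numbers link mice.

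The sign of the log2 fold change turned with a library left out for Mrpl34 (-0.38 to 0.032), Mrpl14 (-0.026 to 0.18), Mrps30 (-0.18 to 0.024), Mrps35 (-0.13 to 0.019), Mrpl19 (-0.0090 to 0.18), Mrpl12 (-0.39 to 0.00011), Mrpl58 (-0.17 to 0.075), Mrps18c (-0.12 to 0.045), Mrpl44 (-0.14 to 0.022) and Mrps16 (-0.011 to 0.10). The cause was not tested. Per kilobase of the principal transcript in place of the deposited gene length, the median level was 17.0 against 11.1 CPM for the large and 13.4 against 7.81 CPM for the small subunit. With 4 mice per group and a median standard error of 0.18, log2 differences of the size seen in most of these genes could not be told from 0.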
